A study of Mus musculus with 45 samples.

Results

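The genes described here are 37 chaperones and genes of the unfolded protein response, taken as a list of symbols and found by exact name in the count table. All 37 were among its 23420 genes, and all 37 passed the filter on low counts that left 14668 genes for testing. Chaperones of the Hsp70, Hsp90 and Hsp40 families bind unfolded proteins, and the stress-inducible members are switched on by heat shock factor 1 when misfolded protein builds up in the cytosol. In the endoplasmic reticulum (ER), where secreted and membrane proteins fold, the sensors Ire1 (gene Ern1), Perk (Eif2ak3) and Atf6 start the unfolded protein response, which raises ER chaperones through Xbp1 and Atf6 and amino acid and stress genes through Atf4. T cells draw on these systems when activation increases protein synthesis, and tumours are tissues in which nutrients and oxygen can be short. The list was divided into 5 arms: 9 cytosolic heat shock genes, 3 mitochondrial chaperones, 16 ER chaperones and folding factors, 4 genes for the sensors and Xbp1, and 5 genes of the ATF4 arm.

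RNA was measured in regulatory T cells (Tregs), a CD4 T cell type that depends on Foxp3 and restrains immunity, sorted from mice carrying B16 melanomas, a transplantable skin tumour line. The study asks how Tregs of the tumour differ from those of a non-draining lymph node, and what the loss of neuropilin-1 (Nrp1), a membrane co-receptor, does to them. All mice carried the tumour, so the lymph node groups are not from healthy animals. The WT groups are Tregs of wild-type mice. HetNrp1def and HetWT are the Nrp1-deficient and the Nrp1-sufficient Tregs of heterozygous mice, in which both kinds of Treg live side by side, and whether samples of the same number came from the same mice is not given in the labels. The N groups carry the same genotype label as HetNrp1def (Het_Nrp1-), although the design lists both homozygous and heterozygous deficient mice, and these groups were kept apart by their titles. Each of these 4 kinds came from tumour and from lymph node, and the ninth group, labelled Teffector, holds effector T cells of WT tumours. The sources used here give neither the driver of the Nrp1 deletion nor the age of the mice. The labels do not say whether replicates are separate animals, so the p-values reflect the scatter of these samples alone, part of which may be technical.

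The 45 libraries held 2945638 to 35787148 counts (median 10248080). In 4 pairs of libraries of 1 group the counts differed by little more than sampling noise: replicates 3 and 4 in the 2 heterozygous node groups and ds1 and 4 in the 2 heterozygous tumour groups. The last go against their sorting labels. Each pair was counted as 1 sample numbered 4, which left 41 samples: 4 in each HetNrp1def and HetWT group and 5 in each other group. The replicate labels are 2, 3 and 4 for singly sorted and ds1 and ds2 for doubly sorted cells, and values below follow that order (2, 4, ds1 and ds2 in the heterozygous lymph node groups, 2, 3, 4 and ds2 in the heterozygous tumour groups). The 9 ds2 libraries stand apart as the shallowest, with the highest share of the nuclear RNA Malat1 as a set, and results that rest on them are given with and without them. Levels are given as CPM, counts scaled to library size with TMM factors. The median level of Nrp1 in lymph nodes was 388 CPM in WT and 337 in HetWT Tregs, against 187 in N and 151 in HetNrp1def, with overlapping ranges. In tumours its medians (131 in WT, 147 in HetWT, 157 in N and 126 in HetNrp1def) did not follow the genotype labels. Of the Treg markers, 7 of 8 listed were in the table and summed to 2158 to 9759 CPM in Treg samples against 199 to 393 CPM in effector samples. The T cell markers, also 7 of 8, summed to 4279 to 9353 CPM in all samples.

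Promoter sequences were searched for fixed spellings of known stress elements, and other forms of these elements were not searched. Of the 37 genes 30 matched a RefSeq promoter (GRCm38.p6), in 35 windows of 300 bases around the gene start. The heat shock element core GAANNTTC, which heat shock factors bind, was found in 7 of the 30 genes (22.9% of their windows, against 7.86% of all 32851 windows). Its letters read the same on both strands. It lies at the same place in Hspa1a and Hspa1b, adjacent genes that encode inducible Hsp70, whose 300-base windows are identical at 296 bases (98.7%). The 250 bases upstream of both starts are printed with the element in capitals because Hspa1a had the widest difference between tissues in the list and Hspa1b is its near-copy. Counted from the first printed base, the 2 differ by the substitutions C44T, T47C and T249G from Hspa1a to Hspa1b.
Hspa1a (chr17:34972157-34972406, minus strand): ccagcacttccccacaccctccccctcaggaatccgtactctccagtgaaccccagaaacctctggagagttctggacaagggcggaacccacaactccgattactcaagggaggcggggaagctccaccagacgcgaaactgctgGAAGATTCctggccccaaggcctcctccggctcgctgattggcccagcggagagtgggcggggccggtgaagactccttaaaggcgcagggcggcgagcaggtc
Hspa1b (chr17:34959239-34959488, minus strand): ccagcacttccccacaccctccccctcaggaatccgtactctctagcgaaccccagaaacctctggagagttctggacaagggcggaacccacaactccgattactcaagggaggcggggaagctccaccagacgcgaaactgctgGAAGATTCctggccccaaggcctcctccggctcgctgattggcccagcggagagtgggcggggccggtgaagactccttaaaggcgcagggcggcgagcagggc

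The letters of this core were also found in Hsph1, Dnaja1, Hspd1, Hspe1 and Asns, which does not show which factor binds there. Hsph1 has 2 overlapping windows that hold the same copy. A copy shared by several windows counts once for each of them in the share given above. Hspd1 and Hspe1, the mitochondrial chaperonin and its co-chaperonin, start back to back and share a single copy. It is shown once, with the Dnaja1 and Asns copies, element in capitals.
Hspd1 (chr1:55088052-55088083, minus strand): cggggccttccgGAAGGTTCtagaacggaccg
Dnaja1 (chr4:40722332-40722363, plus strand): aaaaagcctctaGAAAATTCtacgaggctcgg
Asns (chr6:7693209-7693240, minus strand): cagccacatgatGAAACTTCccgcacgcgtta

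The ER stress element was searched on both strands as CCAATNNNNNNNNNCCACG, the arrangement bound by NF-Y and Atf6. It was found in 7 of the 30 genes, in 20% of their windows against 0.119% of all windows. All 7 are ER chaperones or folding factors, and Hsp90b1 carries 2 copies, so the windows are shown together, element in capitals, for comparison of the 9 bases between its ends.
Hspa5 (chr2:34772013-34772055, plus strand): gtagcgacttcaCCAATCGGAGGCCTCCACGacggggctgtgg
Hsp90b1 (chr10:86705626-86705668, minus strand): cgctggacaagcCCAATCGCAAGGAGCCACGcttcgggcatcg
Hsp90b1 (chr10:86705521-86705563, plus strand): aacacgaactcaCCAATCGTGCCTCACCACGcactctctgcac
Dnajc3 (chr14:118937815-118937857, plus strand): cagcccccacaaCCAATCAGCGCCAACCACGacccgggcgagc
Calr (chr8:84847063-84847105, plus strand): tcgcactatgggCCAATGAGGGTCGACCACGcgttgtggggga
Canx (chr11:50325788-50325830, minus strand): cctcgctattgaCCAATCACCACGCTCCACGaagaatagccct
Pdia6 (chr12:17266479-17266521, plus strand): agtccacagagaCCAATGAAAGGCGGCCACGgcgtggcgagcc
Creld2 (chr15:88819508-88819550, minus strand): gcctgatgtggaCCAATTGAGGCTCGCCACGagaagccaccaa

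The ATF4 site TTGCATCA, on either strand, was found in Herpud1 and Chac1 (5.71% of the list's windows against 0.895% of all), both shown with the site in capitals. The unfolded protein response element TGACGTGG was found in none of the 35 windows and in 0.676% of all windows. Each match describes letters in a window and is not a test of binding. Only these exact spellings were searched. A window without a match, such as that of Asns for the ATF4 site, may therefore hold another form. No promoter was matched for Hspa8, Hsp90aa1, Hsp90ab1, Hspa9, Manf, Hyou1 and Atf6.
Herpud1 (chr8:94386305-94386336, plus strand): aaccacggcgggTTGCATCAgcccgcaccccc
Chac1 (chr2:119351037-119351068, plus strand): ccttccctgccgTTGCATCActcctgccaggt

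Per kilobase of exon, the constitutive cytosolic chaperones were the most abundant members. In WT tumour Tregs Hspa8 (the constitutive Hsp70) averaged 430.3 and Hsp90ab1 (Hsp90 beta) 427 CPM per kilobase, followed by the ER chaperones Hsp90b1 (226) and Hspa5 (201). The inducible Hspa1a and Hspa1b averaged 14.3 and 32.3 CPM per kilobase, and the rarest members were Chac1 (0.691) and Ern1 (0.154). The list thus spans genes read deeply in every library and genes with a handful of counts.

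Averaged over its genes, each arm other than the mitochondrial one had a higher mean in tumour than in lymph node Tregs of WT mice, by amounts that differed between arms. The cytosolic arm stood at 6.63 ± 0.83 log2 CPM (SD, n = 5) in WT lymph nodes and 7.83 ± 0.59 in WT tumours (n = 5). Hspa1a and Hspa1b carried most of that rise: over the 9 genes the fitted difference within WT had a median of 0.17 and a maximum of 4.31 (Hspa1a). The sensors and Xbp1 stood at 3.13 ± 1.08 and 4.42 ± 0.59, and the ATF4 arm at 2.22 ± 1.02 and 3.44 ± 0.53, in the same 2 groups. The ER arm differed less, with 6.86 ± 0.35 and 7.05 ± 0.25, and the mitochondrial chaperones stood at 7.27 ± 0.54 and 7.14 ± 0.38. Effector T cells of the same tumours lay below WT tumour Tregs in all 5 arms, at 6.56 ± 1.15 (cytosolic), 6.93 ± 0.43 (mitochondrial), 6.45 ± 0.28 (ER), 3.02 ± 0.51 (sensors) and 1.16 ± 0.53 (ATF4 arm). The ranges of WT tumour Tregs and effector T cells did not overlap for the sensors and the ATF4 arm. They overlapped for the cytosolic, mitochondrial and ER arms, the last only just. In N, HetNrp1def and HetWT the arms other than the mitochondrial one also had higher means in tumours, by amounts that varied. From node to tumour in N, the ER arm stood at 6.99 ± 0.28 and 7.06 ± 0.13, and the ATF4 arm at 1.70 ± 0.57 and 2.52 ± 0.76. The mitochondrial chaperones stood at 6.65 and 6.94 in HetNrp1def, 7.25 and 6.97 in N, and 7.25 and 6.94 in HetWT. Arm means are descriptions and were not tested.

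**Figure D1:**
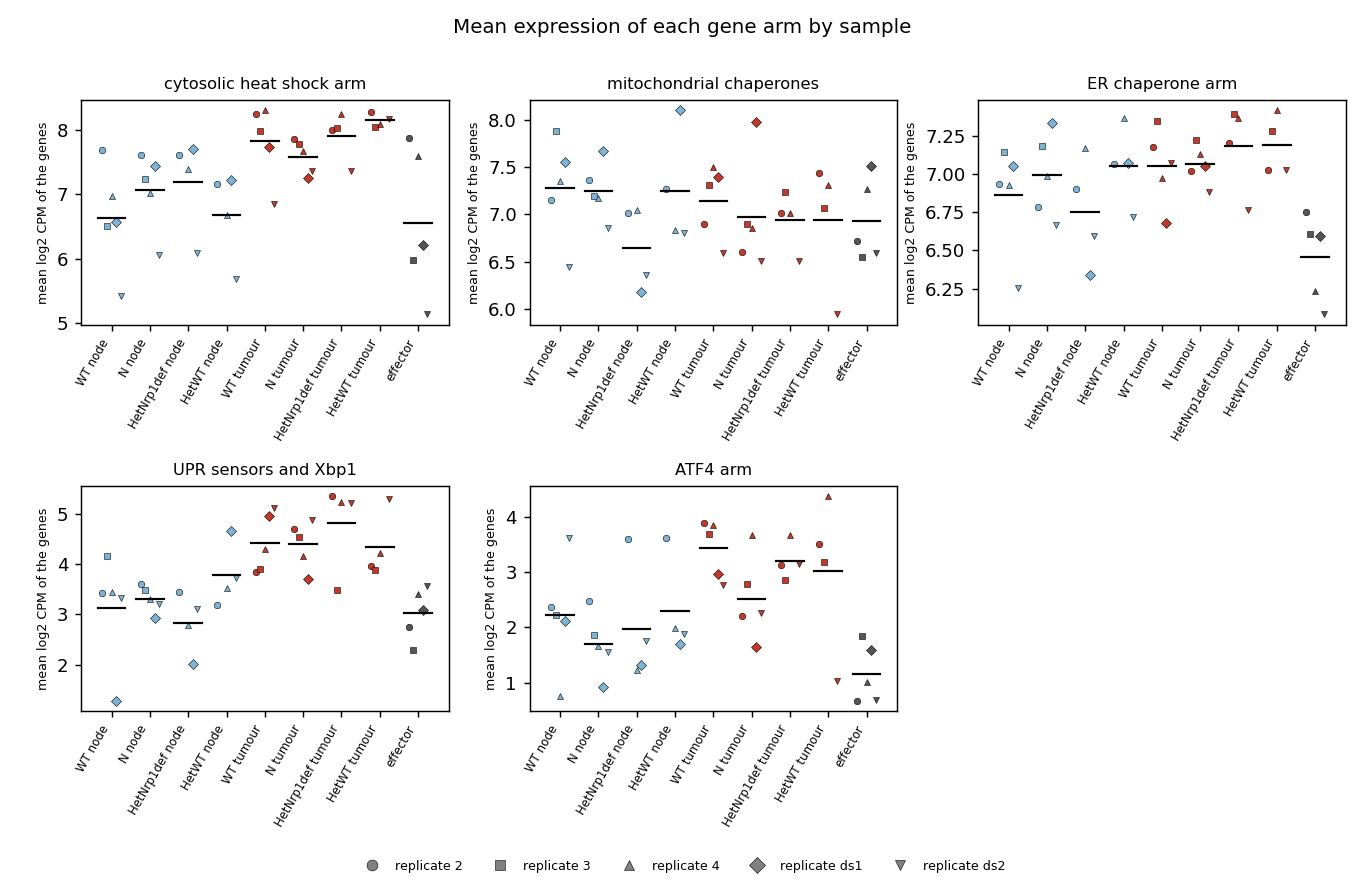
Mean log2 CPM (prior count 2) over the genes of each arm, one point per sample, with the marker giving the replicate label and the black line the group mean; lymph node Tregs are blue, tumour Tregs red and effector T cells grey. In the cytosolic arm the ds2 sample lies below its group mean in 8 of 9 groups, and in the sensors and Xbp1 panel the effector T cells (2.30 to 3.56) lie below the WT tumour Tregs (3.85 to 5.12).

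Tumour and lymph node Tregs were compared over all 4 genotypes (tumour minus node, genotypes weighted equally, edgeR quasi-likelihood test, Benjamini-Hochberg over all genes). Of the 37 genes 4 rose in tumours and none fell, at an adjusted p below 0.05: Hspa1a, Hspa5, Xbp1 and Ern1. The background was 11.2% of all genes called in either direction and 5.84% called higher, so 4 of 37 is near the share of all genes. Under alternatives some members were called lower in tumours: Dnajb9 with DESeq2 and Dnajc3 without N tumour ds1. Hspe1 was called lower with the authors' log2 values and in edgeR with the replicate label as a block. A further 7 members had an unadjusted p below 0.05 without passing the adjustment. In all, 11 of 37 members met that cut, against 3354 of the 14668 genes tested. The log2 fold change was above 0 for 29 of the 37, with a median of 0.22 against -0.08 over all genes tested. In sorted bulk samples, a change in the share of cells that express a gene and a change in RNA per cell cannot be told apart.

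Among cytosolic heat shock genes, Hspa1a (chr17:34969190-34972156, minus strand, mm10) had the widest difference. In lymph nodes, Hspa1a stood at 9.57, 0.716, 0.306, 0 and 0 CPM in WT Tregs, at 14.7, 2.25, 2.09, 0.116 and 0.180 in N, at 11.5, 8.22, 10.3 and 0.339 in HetNrp1def and at 1.18, 0, 0.919 and 0 in HetWT. In tumours it stood at 65.3, 27.0, 82.4, 33.1 and 3.82 CPM in WT, at 57.1, 20.2, 24.2, 49.0 and 18.1 in N, at 37.3, 27.9, 82.0 and 24.8 in HetNrp1def and at 36.3, 32.2, 46.9 and 113 in HetWT. Effector T cells held 22.2, 0, 5.74, 0.861 and 0 CPM of Hspa1a. Every tumour Treg sample except WT ds2 lay above every lymph node Treg sample, and the tissues overlapped only within WT. The difference was 4.16 (SE 0.74, adjusted p = 5.57e-05) on the log2 scale, and Hspa1a was called in all 9 alternative fits of all groups and in all 36 fits that left out 1 sample. In the nodes the sample numbered 2 was the highest of each genotype.

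Hspa1b (chr17:34956436-34959238, minus strand), its neighbour and near-copy, followed a similar order of groups with more overlap. In lymph nodes, Hspa1b stood at 77.0, 0.429, 29.9, 0.317 and 0.309 CPM in WT Tregs, at 94.5, 6.92, 8.16, 31.9 and 0.539 in N, at 69.6, 17.0, 114 and 1.19 in HetNrp1def and at 28.0, 13.3, 30.5 and 0.200 in HetWT. In tumours it stood at 177, 64.9, 149, 41.8 and 20.8 CPM in WT, at 230.2, 54.9, 95.9, 20.4 and 25.8 in N, at 119, 85.9, 202 and 44.0 in HetNrp1def and at 283, 59.6, 82.6 and 226 in HetWT. Effector T cells held 83.1, 0.242, 54.6, 0.108 and 0 CPM of Hspa1b. Only 7 of the 18 tumour Treg samples lay above all lymph node samples, and the difference of 2.00 (SE 0.78, adjusted p = 0.0987) did not pass the threshold. Hspa1b was called in 3 of the same 9 alternatives. The sources used here do not say how reads shared by the 2 genes were counted, so their separate levels are uncertain.

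**Figure D2:**
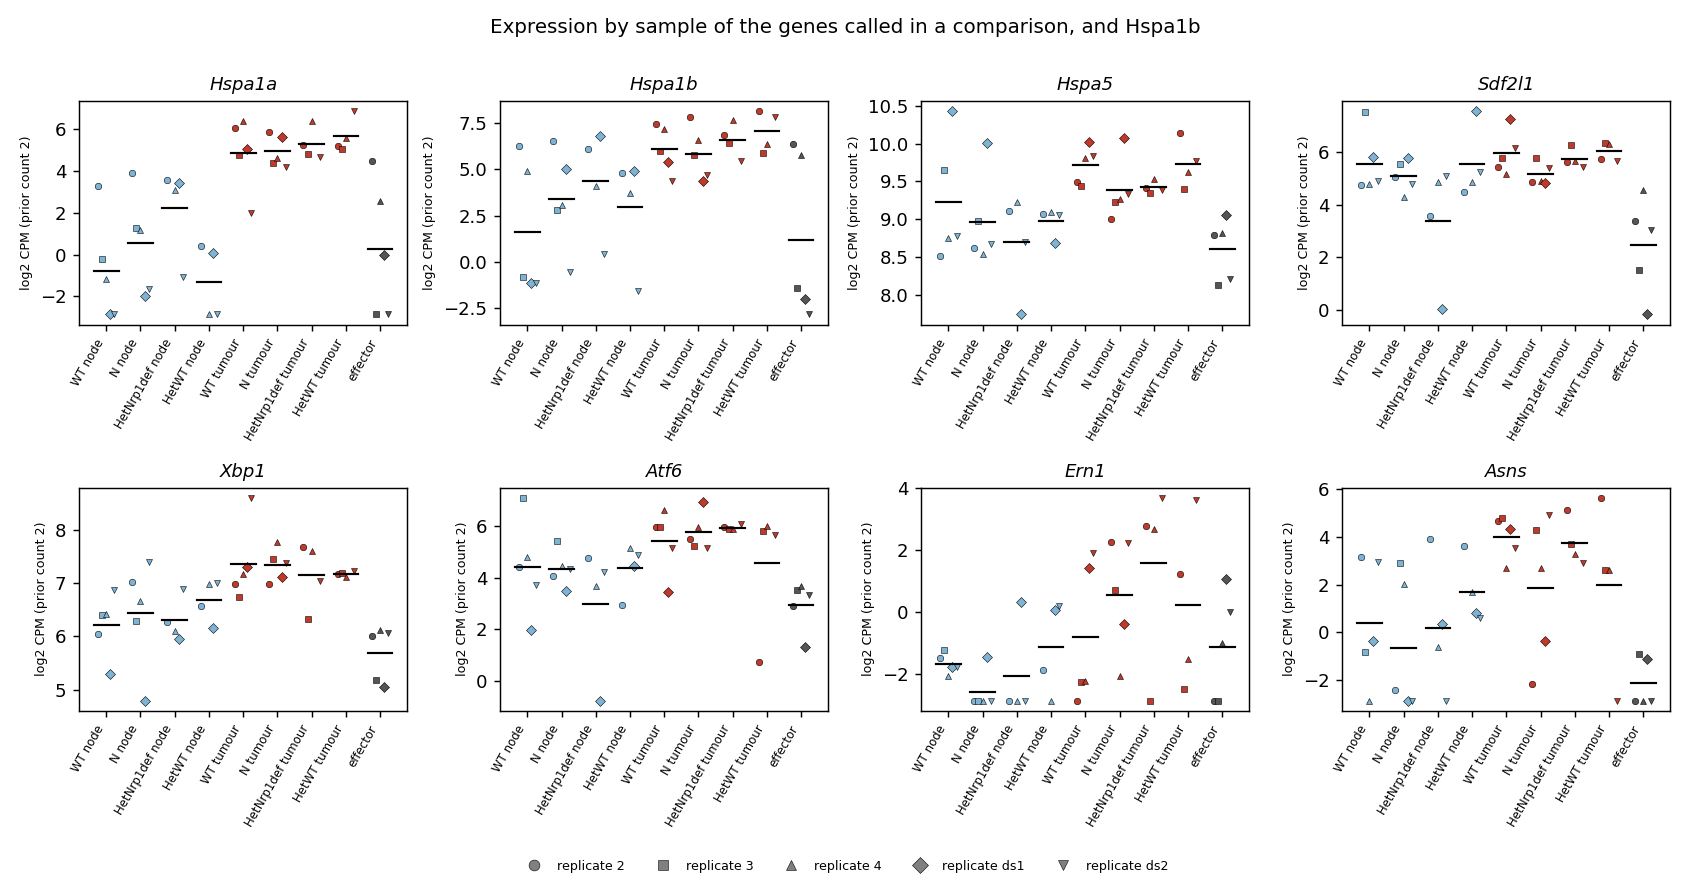
Expression (log2 CPM, prior count 2) in every sample of the 7 genes called in at least 1 comparison, and of Hspa1b; marker shapes give the replicate label, black lines the group means, blue lymph node Tregs, red tumour Tregs and grey effector T cells. For Hspa1a the tumour Treg samples are high in all 4 genotypes with WT ds2 as the exception, while the Ern1 points at the bottom of the panel are samples with no count.

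The other cytosolic genes did not pass the test. Hspa8 ran from 906 to 3546 CPM (median 1524) in the 18 lymph node Treg samples, from 1059.7 to 2789 (median 1829) in the 18 tumour Treg samples and from 727 to 2127 (median 1652) in the 5 effector samples. For Hspa8 the 3 ranges overlapped almost fully, with a difference of 0.08 (SE 0.16, adjusted p = 0.849) between tissues. Hsp90ab1 ran from 1037 to 2781 CPM (median 1504) in the 18 lymph node Treg samples, from 926 to 1615 (median 1326) in the 18 tumour Treg samples and from 1029 to 2575 (median 1436) in the 5 effector samples. No tumour sample exceeded the highest lymph node sample, and the difference was -0.34 (SE 0.14, adjusted p = 0.128). The remaining 5 were Hspa4 and Hsph1 (Hsp70 relatives that exchange its nucleotide), Hsp90aa1 (the inducible Hsp90) and the Hsp40 co-chaperones Dnaja1 and Dnajb1, with log2 fold changes between -0.22 (Hspa4) and 0.21 (Dnajb1). Hspa1a and Hspa1b had the highest differences of the arm, and the median over its 9 genes was 0.08.

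None of the 3 mitochondrial chaperones was called by the main edgeR fit. Hspd1 ran from 12.6 to 262 CPM (median 106) in the 18 lymph node Treg samples, from 60.7 to 217 (median 119) in the 18 tumour Treg samples and from 60.6 to 102 (median 68.9) in the 5 effector samples. The tissues overlapped widely, with a difference of 0.24 (SE 0.23, adjusted p = 0.604) for this chaperonin. Hspe1, its co-chaperonin, had -0.81 (SE 0.32, adjusted p = 0.106), and Hspa9, the mitochondrial Hsp70, 0.00 (SE 0.20, adjusted p = 0.999). Hspe1 was called lower in tumours with the authors' log2 values and in edgeR with the replicate label as a block. Hspd1 and Hspe1, which start back to back, had differences of opposite sign in these samples, neither past the threshold in the main fit.

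In the ER arm 1 of 16 genes was called, Hspa5 (chr2:34771970-34777547, plus strand), which encodes BiP, the ER Hsp70 that also holds the sensors inactive. In lymph nodes, Hspa5 stood at 365, 803, 429, 1374 and 439 CPM in WT Tregs, at 393, 506, 371, 1032 and 408 in N, at 551, 599, 214 and 417 in HetNrp1def and at 537, 546, 413 and 534 in HetWT. In tumours Hspa5 stood at 718, 691, 894, 1041 and 912 CPM in WT, at 512, 600.2, 616, 1081 and 645 in N, at 684, 653, 742 and 668 in HetNrp1def and at 1124, 673, 786 and 876 in HetWT. The effector samples held 443, 280.5, 452, 532 and 296 CPM of Hspa5. Tumour and node samples did not overlap in HetNrp1def and HetWT, while in WT and N the ds1 node sample lay as high as most or all tumour samples, and WT node 3 lay above WT tumour 2 and 3. The difference was 0.52 (SE 0.17, adjusted p = 0.0418). The call rests on several single samples: it was lost in 9 of 36 fits that left out 1 (HetWT node ds1, HetNrp1def node ds1, N node 2, 4 or ds2, WT node 2 or ds2, N tumour ds1 or WT tumour ds2), with an adjusted p of at most 0.0720, and the difference ran from 0.47 to 0.62 over the 36. Without all ds2 samples the adjusted p was 0.169 and the difference 0.47.

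Hsp90b1 ran from 240.5 to 1941 CPM (median 728) in the 18 lymph node Treg samples, from 375 to 1722 (median 937) in the 18 tumour Treg samples and from 233 to 696 (median 539.7) in the 5 effector samples. Hsp90b1, the ER Hsp90, differed by 0.23 (SE 0.22, adjusted p = 0.608) between tissues, with overlapping ranges. Calr ran from 57.0 to 567 CPM (median 221) in the 18 lymph node Treg samples, from 143 to 475 (median 336) in the 18 tumour Treg samples and from 93.2 to 352 (median 230.1) in the 5 effector samples. Calr, the glycoprotein chaperone calreticulin, differed by 0.38 (SE 0.22, adjusted p = 0.308), also with overlap. Sdf2l1 ran from 0.900 to 185 CPM (median 29.4) in the 18 lymph node Treg samples, from 28.4 to 152 (median 50.0) in the 18 tumour Treg samples and from 0.753 to 23.4 (median 8.01) in the 5 effector samples. Sdf2l1, a BiP partner that is itself an Xbp1 and Atf6 target, differed by 0.41 (SE 0.37, adjusted p = 0.580) between tissues, while its lowest tumour Treg sample lay above its highest effector sample.

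The other 12 ER genes were not called. Manf (a BiP-binding secreted factor) had 0.46 (SE 0.26) and Pdia3 (a disulfide isomerase of glycoproteins) 0.44 (SE 0.24). Pdia4, Pdia6 and P4hb (disulfide isomerases), Canx (calnexin), Dnajb11 (a BiP co-chaperone), Creld2 and Hyou1 (an ER Hsp70 relative) lay between -0.05 (Pdia6) and 0.43 (Hyou1). Below 0 were also Herpud1 (ER-associated degradation) at -0.21 (SE 0.24), Dnajc3 (a BiP co-chaperone that restrains Perk) at -0.51 (SE 0.21) and Dnajb9 at -1.45 (SE 0.57, adjusted p = 0.0969). Dnajb9, a BiP co-chaperone and a classical Xbp1 target, ran from 0.900 to 273 CPM in lymph node and from 0.317 to 29.0 CPM in tumour Tregs, so the spread was widest in the nodes. The arm's median difference was 0.21.

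Of the 4 sensor genes 2 rose, Xbp1 and Ern1. Xbp1 (chr11:5520659-5525893, plus strand) encodes the factor whose messenger Ire1 splices, and gene counts do not separate the spliced from the unspliced form. In lymph nodes, Xbp1 stood at 65.9, 84.5, 85.3, 39.3 and 117 CPM in WT Tregs, at 131, 78.5, 102, 27.6 and 168 in N, at 77.1, 68.1, 61.4 and 119 in HetNrp1def and at 95.5, 126, 71.6 and 129 in HetWT. In tumours it stood at 126, 107, 144, 158 and 389 CPM in WT, at 127, 176, 219, 138 and 167 in N, at 205, 80.1, 194 and 131 in HetNrp1def and at 145, 147, 138 and 149 in HetWT. The effector samples held 64.6, 36.0, 69.2, 33.0 and 66.6 CPM of Xbp1. Within HetWT every tumour sample lay above every node sample, while 3 of 5 tumour samples in N and 1 tumour sample in each of WT and HetNrp1def lay below the highest node sample. The difference was 0.83 (SE 0.23, adjusted p = 0.00992), it was called in all 36 fits without 1 sample, and without all ds2 samples it was 0.93 (adjusted p = 0.0432). The Xbp1 call was lost with the authors' log2 values, where the difference was 0.33 (limma, adjusted p = 0.282), and with doubly sorted samples alone, where it was 0.87 (adjusted p = 0.984).

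Ern1 (chr11:106394650-106487852, minus strand) encodes Ire1 and had few counts. In lymph nodes, Ern1 stood at 0.218, 0.286, 0.102, 0.158 and 0.154 CPM in WT Tregs, at 0, 0, 0, 0.233 and 0 in N, at 0, 0, 1.12 and 0 in HetNrp1def and at 0.134, 0, 0.919 and 1.0 in HetWT. In tumours it stood at 0, 0.0739, 0.0767, 2.55 and 3.61 CPM in WT, at 4.68, 1.49, 0.0998, 0.634 and 4.53 in N, at 6.76, 0, 6.27 and 12.8 in HetNrp1def and at 2.23, 0.0412, 0.209 and 12.2 in HetWT. Effector T cells held 0, 0, 0.364, 1.94 and 0.858 CPM of Ern1. Of the tumour samples 10 of 18 lay above every node sample and 2 held no count. The counts behind these values were 9 (WT), 2 (N), 5 (HetNrp1def) and 14 (HetWT) over all node samples of a group, and 32, 170, 292 and 111 over the tumour samples. The fitted difference was 3.93 (SE 1.02, adjusted p = 0.00630), with the N node group near the floor. Without all ds2 samples it was 3.11 with an adjusted p of 0.0857, past the threshold no longer, and ds2 held the highest value of 3 of the 4 tumour groups.

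Atf6 (chr1:170704674-170867771, minus strand), the sensor that becomes a transcription factor on cleavage, came close to the threshold. In lymph nodes, Atf6 stood at 21.3, 137, 27.7, 3.80 and 13 CPM in WT Tregs, at 16.5, 42.3, 21.6, 10.9 and 20.3 in N, at 26.8, 12.8, 0.450 and 18.5 in HetNrp1def and at 7.55, 35.1, 21.8 and 29.4 in HetWT. In tumours it stood at 62.8, 61.9, 97.5, 10.6 and 35.2 CPM in WT, at 44.7, 37.7, 61.7, 123 and 35.1 in N, at 62.0, 58.2, 58.2 and 67.1 in HetNrp1def and at 1.53, 56.3, 63.1 and 50.5 in HetWT. Effector T cells held 7.39, 11.3, 12.6, 2.37 and 10.0 CPM of Atf6. All HetNrp1def tumour samples lay above all HetNrp1def node samples, and in the other genotypes high node samples or low tumour samples made the groups overlap. The difference was 1.19 (SE 0.42, adjusted p = 0.0517). Eif2ak3, which encodes Perk, differed by 0.14 (SE 0.40, adjusted p = 0.904).

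None of the 5 ATF4 arm genes was called between tissues, and all 5 had differences above 0 with a median of 0.35. Asns (chr6:7675169-7693254, minus strand), the ATF4 target that makes asparagine, had the widest. In lymph nodes, Asns stood at 8.70, 0.429, 0, 0.634 and 7.56 CPM in WT Tregs, at 0.0485, 7.35, 3.99, 0 and 0 in N, at 15.0, 0.509, 1.12 and 0 in HetNrp1def and at 12.3, 3.10, 1.61 and 1.40 in HetWT. In tumours Asns stood at 25.5, 27.3, 6.45, 19.96 and 11.5 CPM in WT, at 0.0884, 19.7, 6.39, 0.634 and 29.9 in N, at 35.2, 12.7, 9.54 and 7.38 in HetNrp1def and at 49.9, 5.94, 6.01 and 0 in HetWT. Effector T cells held 0, 0.403, 0, 0.323 and 0 CPM of Asns. Of the tumour samples 7 of 18 lay above all node samples, HetWT ds2 held no count, and effector T cells were at or near 0 throughout. The difference was 2.09 (SE 0.77, adjusted p = 0.0701) and was called in the DESeq2 fit and in the fit of all 45 libraries.

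Atf4 ran from 58.9 to 349 CPM (median 148) in the 18 lymph node Treg samples, from 86.3 to 506 (median 188) in the 18 tumour Treg samples and from 89.5 to 263 (median 145) in the 5 effector samples. Atf4, controlled largely at translation, differed by 0.35 (SE 0.24, adjusted p = 0.415) between tissues. Ddit3 ran from 0.225 to 127 CPM (median 29.5) in the 18 lymph node Treg samples, from 0.637 to 89.2 (median 37.8) in the 18 tumour Treg samples and from 1.61 to 53.3 (median 35.7) in the 5 effector samples. Ddit3, the CHOP factor of lasting ER stress, differed by 0.26 (SE 0.45, adjusted p = 0.808), and its ranges overlapped fully. Trib3, a pseudokinase induced by Atf4 and CHOP, had 0.22 (SE 0.80) and Chac1, which degrades glutathione, 1.29 (SE 0.97). Chac1 had no count in 8 of 18 samples of each tissue.

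Within a single genotype no member was called between tissues by the main edgeR fit, in WT, N, HetNrp1def or HetWT Tregs. The background was 0.873% in WT, 0.791% in N, 0.654% in HetNrp1def and 0.239% in HetWT. At an unadjusted p below 0.05 there were 3 (WT), 2 (N), 2 (HetNrp1def) and 2 (HetWT) members. The counts over all 14668 genes tested were 1532, 1394, 1662 and 1191 in that order. DESeq2 called 2 (Hspa1a and Xbp1), 1 (Ern1), 0 and 1 (Hspa1a) members. Its calls over all genes were 507 of 12582, 395 of 13143, 842 of 11463 and 279 of 12022. With the replicate label as a block, edgeR called the same members as DESeq2 in each genotype, and 382, 313, 190 and 93 genes in all. Hspa1a in HetWT was also called by edgeR with all 45 libraries and with only the groups compared. Hspa1a differed by 4.31 (SE 1.38, adjusted p = 0.144) in WT, 3.10 (SE 1.30, adjusted p = 0.382) in N, 2.50 (SE 1.42, adjusted p = 0.537) in HetNrp1def and 6.72 (SE 1.74, adjusted p = 0.0929) in HetWT. Xbp1 differed by 1.23 (SE 0.43), 0.71 (SE 0.42), 0.91 (SE 0.48) and 0.45 (SE 0.47) in the same order, and Hspa5 by 0.32 (SE 0.33), 0.35 (SE 0.33), 0.63 (SE 0.36) and 0.77 (SE 0.37). All 12 of these differences were above 0. The mean over genotypes is made of these same samples and is not a second measurement.

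WT tumour Tregs were compared with the effector T cells of WT tumours, 5 samples each, which asks how the 2 kinds of T cell of 1 tissue differ. The Tregs were higher in 5 of the 37 genes and lower in none, against a background of 5.71% called in either direction and 4.1% called higher. Sdf2l1 differed by 2.97 (SE 0.76, adjusted p = 0.00825), Xbp1 by 1.78 (SE 0.44, adjusted p = 0.00547) and Hspa5 by 1.09 (SE 0.33, adjusted p = 0.0343). Asns differed by 6.84 (SE 1.84, adjusted p = 0.0134) and Atf6 by 2.62 (SE 0.82, adjusted p = 0.0440). All 5 WT tumour samples lay above all 5 effector samples for Sdf2l1, Xbp1, Hspa5 and Asns, whereas the ds1 tumour sample of Atf6 lay below the top effector samples. These genes had been called on the same samples, so their separation is not a second result. The share of all genes that separate in this way was not counted. The effector group held 8 counts of Asns in all, in 2 of 5 samples, so the size of that fold is loosely set.

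Of the ER arm 13 of 16 genes had a fold change above 0 against effector T cells, with a median of 0.55, while the median over all genes tested was 0.07. Hspa1a, the gene with the widest tissue difference, had 2.86 (SE 1.29, adjusted p = 0.220) here, with effector sample 2 at 22.2 CPM and 2 effector samples at 0. Ern1 had 0.98 (SE 1.72, adjusted p = 0.879), and Dnajb9 was the lowest member at -2.06 (SE 1.09, adjusted p = 0.332). Single samples carried some of the calls. Without tumour ds2 the Xbp1 difference was 1.31 (adjusted p = 0.0682), and Hspa5 lost its call without effector 3 or ds2 or tumour 4, ds1 or ds2. Atf6 lost its call in 8 of 10 fits without 1 sample, all but those without tumour ds1 or ds2. Without all ds2 samples only Asns was called (adjusted p = 0.0355).

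WT lymph node Tregs against the same effector samples gave 1 called member, Sdf2l1, higher in Tregs by 2.84 (SE 0.75, adjusted p = 0.0289), at a background of 1.79% in either direction and 1.69% higher. The call was lost without effector 2, 3, ds1 or ds2 or without node 3, where the difference was 1.95 to 2.80 and the adjusted p 0.0714 to 0.288. Xbp1, Hspa5, Atf6 and Asns had 0.54 (SE 0.42), 0.77 (SE 0.33), 2.22 (SE 0.81) and 4.45 (SE 1.67) without passing the threshold. Both comparisons use the same effector samples, which also come from another tissue than the nodes. Sdf2l1 was low in all 5 effector samples (0.753 to 23.4 CPM) and lay at 27.0 CPM or more in all 10 WT Treg samples.

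**Figure D3:**
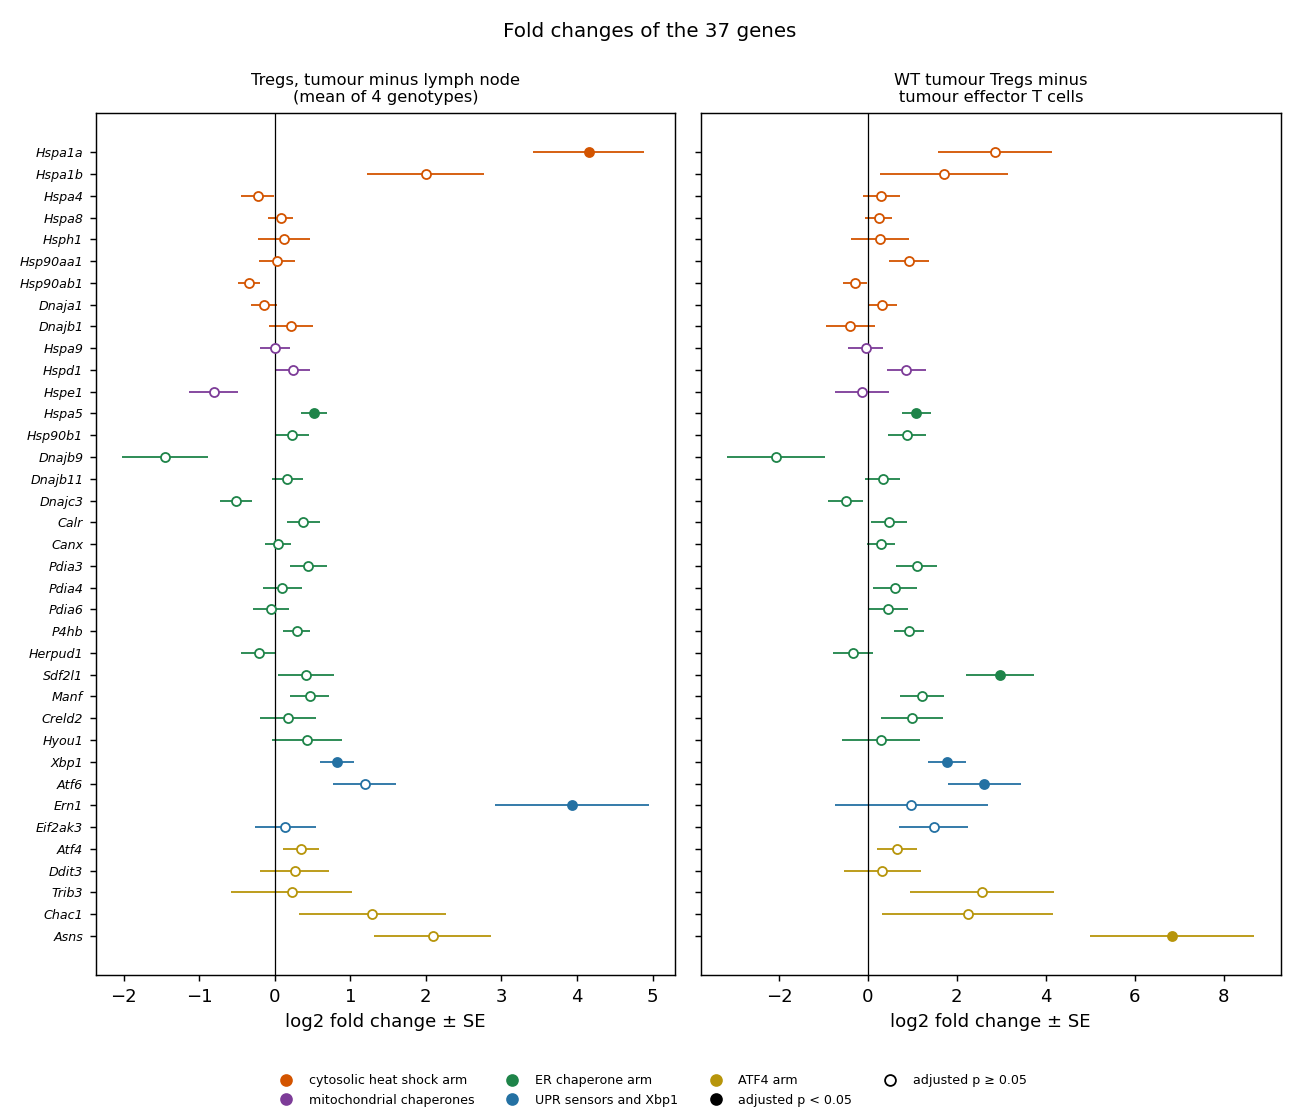
Log2 fold change with its standard error (bars) for the 37 genes, coloured by arm, for tumour against lymph node Tregs (left, mean of 4 genotypes) and WT tumour Tregs against tumour effector T cells (right); filled points have an adjusted p below 0.05. On the left Hspa1a (4.16) and Ern1 (3.93) stand out to the right and Dnajb9 (-1.45) to the left, and on the right Asns (6.84) has the largest value and one of the longest bars.

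Nrp1-deficient and Nrp1-sufficient Tregs were compared in each tissue, and the tissue change was compared between them, to see whether loss of Nrp1 alters this response. No member was called by edgeR in any of these 6 comparisons: N against WT in tumour and in node, HetNrp1def against HetWT in tumour and in node, and the 2 differences of tissue change. The background was 0% in each, since the main edgeR fit called none of the 14668 genes. At an unadjusted p below 0.05 there were 1, 2, 0 and 3 members in the first 4 and 1 member in each difference of tissue change. DESeq2 called no member in any of the 6, and 3, 19, 8, 315, 10 and 28 genes in all. Over all genes 376, 616, 291, 952, 455 and 571 had an unadjusted p below 0.05.

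The members with the widest genotype differences were imprecisely measured. Between HetNrp1def and HetWT node Tregs Hspa1a differed by 3.82 (SE 1.54, adjusted p = 0.686) and Sdf2l1 by -1.86 (SE 0.81, adjusted p = 0.71). The tissue change of Hspa1a differed by -4.23 (SE 2.01, adjusted p = 1.0) between HetNrp1def and HetWT and by -1.21 (SE 1.71, adjusted p = 1.0) between N and WT. In tumours the Hspa1a difference was -0.33 (SE 1.2) for N against WT and -0.41 (SE 1.34) for HetNrp1def against HetWT, with overlapping samples. Xbp1 differed by -0.16 (SE 0.42) and 0.08 (SE 0.47), and Hspa5 by -0.30 (SE 0.33) and -0.33 (SE 0.36), in the same 2 comparisons.

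**Figure D4:**
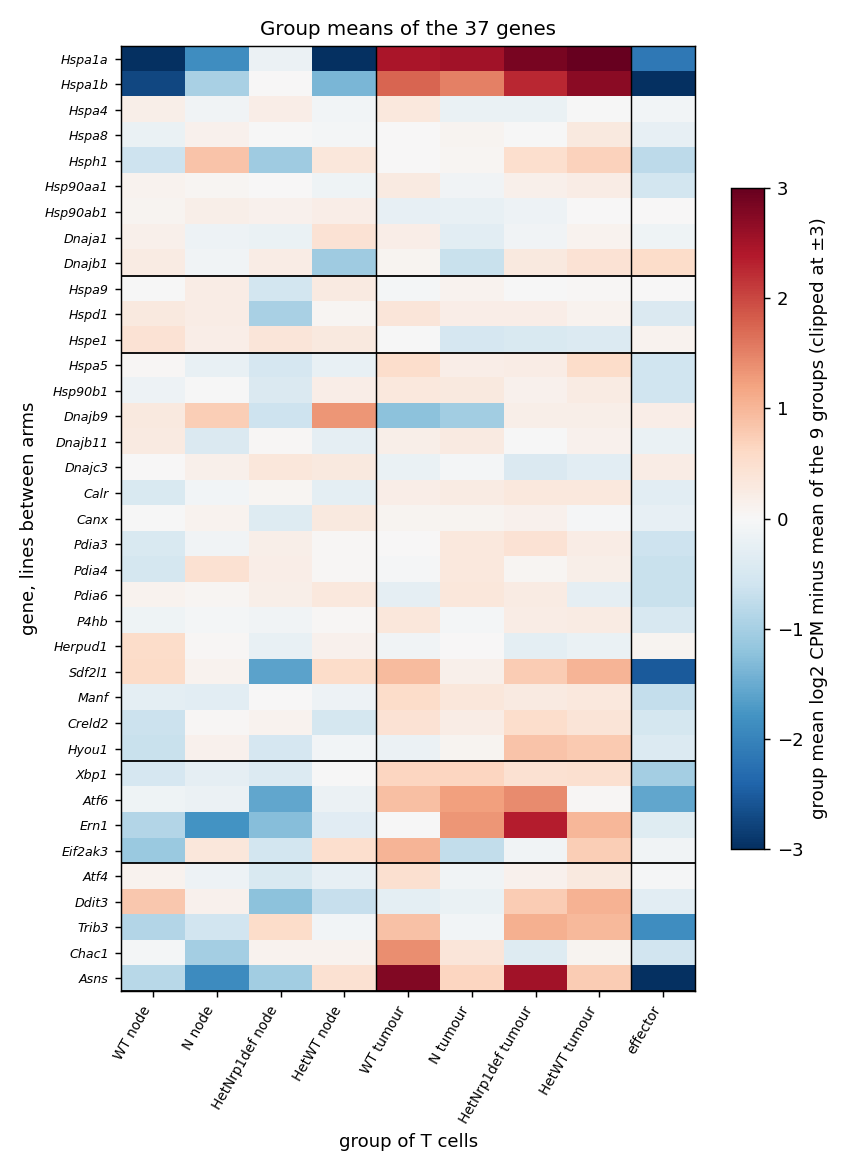
Group means of log2 CPM for each of the 37 genes (rows, in the order of the arms, separated by lines), minus the mean of that gene's 9 group means, with red above and blue below; the columns are the 4 lymph node Treg groups, the 4 tumour Treg groups and effector T cells. The 4 tumour columns are red for Hspa1a, Hspa1b, Xbp1 and Asns, and the effector column is blue for Sdf2l1, Xbp1 and Asns.

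Other genes of these pathways, from lists drawn up for comparison, were counted in the same tissue comparison, where 5.84% of all genes were called higher and 11.2% in either direction. Of 38 further heat shock and cytosolic folding genes 1 rose and 4 fell (median -0.04). Serpinh1, an ER chaperone of collagen induced by heat shock, rose by 5.06 (SE 1.06, adjusted p = 5.44e-04), while Dnajb2 fell by 2.31 and the chaperonin subunit Cct5 fell by 0.70. Of 53 further ER genes 2 rose and none fell (median 0.16): Ero1l, the oxidase that recharges disulfide isomerases, by 2.26 (SE 0.40, adjusted p = 5.05e-05) and Fkbp14 by 3.35, with Derl3 at -2.64 (adjusted p = 0.0859). Of 42 further ATF4 and integrated stress response genes tested (43 listed), 7 rose and none fell (median 0.08), led by Cebpb (2.47), Stc2 (4.99) and Jdp2 (3.28). Of 12 further mitochondrial chaperones and proteases Afg3l2 rose by 1.15 and Grpel1 fell by 0.82, and Trap1 had -0.68 (adjusted p = 0.253).

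Markers of other cells and of handling were summed beside these values. Of 12 immediate early genes, which respond within minutes to stimulation and to tissue dissociation, 4 rose between tissues (median 0.86), against 5.84% of all genes called higher. They summed to 552 to 1821 CPM in node Tregs, 871 to 3489 CPM in tumour Tregs and 677 to 1750.0 CPM in effector T cells. Their part in the Hspa1a difference was not tested. The 8 melanoma markers summed to 4.91 to 3732 CPM in tumour Tregs, against 0.950 to 72.5 in nodes and 3.55 to 79.1 in effector T cells. The 3 tumour Treg samples with the highest sums (WT 4 at 3732, HetWT 4 at 2114 and HetNrp1def 4 at 1842 CPM) held 82.4, 46.9 and 82.0 CPM of Hspa1a. The 3 with the lowest sums (N ds1 at 4.91, WT ds2 at 6.58 and N 3 at 7.65 CPM) held 49.0, 3.82 and 20.2 CPM. The next highest sum (WT 3 at 1534 CPM) came with 27.0 CPM of Hspa1a. The highest Hspa1a value (HetWT ds2 at 113 CPM) came with a melanoma sum of 23.0 CPM. The part of melanoma cells in the Hspa1a difference was not tested.

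B cell markers (7 of 8 listed) summed to 3.48 to 682 CPM in node Tregs and 3.92 to 39.7 CPM in tumour Tregs, and to 0 to 53.4 in effector T cells. Plasma cells, which depend on Xbp1, were followed with 7 of 9 markers, summing to 41.1 to 391.71 CPM in node Tregs, 111 to 372 in tumour Tregs and 9.47 to 65.3 in effector T cells. Of these Prdm1 and Irf4 are also expressed by activated Tregs, with Prdm1 at 55.0 to 230.3 and Irf4 at 12.02 to 127 CPM in tumour Tregs and at 2.80 to 30.2 and 0.547 to 34.9 in effector T cells. In tumour Tregs Igj reached 106 CPM (in N), Mzb1 20.9, Derl3 4.75, Sdc1 3.76 and Tnfrsf17 0.159, and all 5 were at 0 in some samples. Dendritic cell markers (7) summed to 0 to 153 CPM in nodes, 16.2 to 452 in tumours and 0 to 9.90 in effector T cells, and macrophage markers (10 of 11) to 0 to 122, 1.49 to 287 and 3.15 to 28.5 CPM. Endothelial (6) and fibroblast (7) markers reached at most 234 and 37.2 CPM in any sample, and 5 CD8 T and NK cell markers summed to 5.49 to 835 CPM over all samples. Pax5 was at 0 throughout HetWT tumour Tregs, Tnfrsf17, Tyrp1 and Cd14 throughout HetNrp1def node Tregs, Cldn5 in both HetNrp1def groups, Mlana in WT node Tregs and Cd14 in effector T cells. What these cells contribute to the chaperone values was not tested.

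For the median member, the share of variation between replicate labels was no smaller than that between groups. The groups outnumber the labels, so random scatter alone gives the groups the larger share, and the shares are not on one scale. Of the sum of squares of log2 CPM, the median member had 19.1% between groups and 22.7% between replicate labels, close to 19.6% and 21.1% over all genes tested. The balance differed between genes: Hspa1a had 67.8% between groups and 14.3% between labels, and Xbp1 54.4% and 22.3%. Hsp90aa1 had 9.83% between groups and 75.9% between labels, and Hspa4 8.98% and 69.9%. The arm means of ds2 lay below the group mean by 0.84 log2 units on average in the cytosolic arm (8 of 9 groups) and by 0.53 in the mitochondrial arm (9 of 9), and above it by 0.38 in the sensors and Xbp1. The ds1 samples, also doubly sorted, deviated by 0.08 in the cytosolic and 0.41 in the mitochondrial arm. Malat1 took 0.146% to 0.322% of counts in ds1 and 1.01% to 2.85% in ds2, and in ds2 its share and the low depth cannot be told apart.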

How the data were processed

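RNA of sorted T cells (5000 per library, as given for the Tregs) was amplified with a SMARTer low-input kit, made into Nextera XT libraries and read on a NextSeq 500, per the labels' protocols. The authors deposited whole-number counts of reads for each gene symbol. The submitters' processing notes name mm10, STAR, featureCounts and limma. A second deposited table holds filtered, normalized log2 values of 10832 genes, without Ern1 and Chac1. Versions, annotation, strand setting and the handling of shared reads are not stated in the labels, so overlapping or near-identical genes are uncertain.

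Counts were tested with edgeR 4.0.16 (R 4.3.3): TMM scaling, filterByExpr by group, robust quasi-likelihood fit of 41 samples in 9 groups (32 residual df), no covariates, Benjamini-Hochberg over 14668 genes, threshold 0.05. Libraries of a group with a chi-square per df under 5, a limit set after seeing that all other pairs exceeded 68.4, were summed (3 with 4 in both heterozygous node groups, ds1 with 4 in both heterozygous tumour groups, the last mixing sortings) and kept the number 4. Plotted log2 CPM have a prior count of 2, and arm means average them. DESeq2 1.42.0 and limma 3.58.1 served as alternatives, beside other scaling, no filter, all 45 libraries, a replicate block, only the groups compared, either sorting alone, the authors' log2 values and leaving out each sample. The fits were tested on simulated data.

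Members, arms, other lists and markers were chosen with earlier results of these data known. Genes named with values are 12 leading members, every member called in a comparison, and the 3 genes of lowest adjusted p of each other list. Other members, such as Dnajb9 or Hspe1, were named after their values were seen. Of 10 comparisons, same-numbered samples deviated together with r over 0.1 in every pair only for HetNrp1def against HetWT in lymph nodes (0.143 to 0.460, 4 pairs). In each other comparison at least 1 pair fell short of that limit. There the lowest r ran from -0.15 (tissues within WT) to 0.09999 (tissues within N), and the highest from 0.334 to 0.450. These are hints from the values, as no label ties the samples. Exon lengths and gene coordinates come from GENCODE vM21 (mm10) and promoters from RefSeq (GRCm38.p6).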

Additional observations from a re-analysis of the deposited data

Results flagged for a closer look

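Each value below stood far from the other samples of its group, its gap to the nearest exceeding the limit for groups of 4 or 5 samples. Of 108 sets of values examined (5 arm means and 7 called genes in 9 groups) 11 met this. Chance marks about 1 in 20 of sets without tied values. Where all other samples hold no count, as for Ern1 in N and HetNrp1def nodes, any count meets the limit. The 11 can therefore not be set against that rate. Values are log2 CPM.

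Among arm means, the mitochondrial chaperones of N tumour ds1 stood at 7.97 (the others 6.51 to 6.90) and the ER arm of WT node ds2 at 6.26 (6.93 to 7.15). The sensors and Xbp1 stood at 1.29 in WT node ds1 (3.33 to 4.15) and at 3.48 in HetNrp1def tumour 3 (5.21 to 5.34). The ATF4 arm of HetWT node 2 stood at 3.62 (1.70 to 2.00).

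Among genes, Hspa1a of HetNrp1def node ds2 stood at -1.07 (the others 3.06 to 3.54) and Hspa5 of HetWT node ds1 at 8.69 (9.06 to 9.09). Atf6 of HetWT tumour 2 stood at 0.74 (5.66 to 5.98). Ern1 had a count only in the ds1 sample of N nodes, at -1.43, and of HetNrp1def nodes, at 0.34, where all others held none (-2.86). In HetNrp1def tumours Ern1 replicate 3 held no count (-2.86) while the others stood at 2.68 to 3.69.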

How the results depend on the processing

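Between tissues over all genotypes, 4 members were called, and 8 with DESeq2 (Dnajb9 lower), 7 with the 45 libraries as deposited, 7 with a replicate block (Hspe1 lower), 6 with only the groups compared, 4 with DESeq2 size factors (Atf6 in place of Hspa5), 4 without the filter or with singly sorted samples, 1 with doubly sorted samples (Hspa1a) and 2 with the authors' log2 values (Hspa1a higher, Hspe1 lower). Without all ds2 samples, an alternative chosen after seeing the data, it was 2 (Hspa1a and Xbp1), and leaving out 1 sample gave 3 to 6. Within WT the 0 called members became 2 with DESeq2 and 2 with the block (Hspa1a and Xbp1), and 0 to 1 when 1 sample was left out (Hspa1a without WT node 2). Within N it became 1 (Ern1) with each of DESeq2 and the block, within HetWT 1 (Hspa1a) with DESeq2, the 45 libraries, the block, only the groups compared and the authors' log2 values, and within HetNrp1def it stayed 0 in all 10.

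Against effector T cells the 5 members of WT tumour Tregs became 3 without the filter, 10 with the replicate block, 7 with singly and 0 with doubly sorted samples, 0 with the authors' log2 values and 1 without ds2, and 3 to 5 without 1 sample (3 without effector 3 or ds2 or tumour 4 or ds2). For WT node Tregs the 1 became 3 with DESeq2, and 0 without the filter, with the replicate block, only the groups compared, doubly sorted samples, the authors' log2 values or no ds2, and 0 to 1 without 1 sample (0 without effector 2, 3, ds1 or ds2 or node 3). The 6 genotype comparisons gave 0 members in all alternatives. In the block fit, the paired HetNrp1def and HetWT node samples also gave 0.

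Signs turned for differences that were not called. Between tissues they were -0.12 for Hspa8 and -0.079 for Hsp90b1 with doubly sorted samples, -0.018 for Sdf2l1 with the authors' log2 values and -0.19 for Ddit3 with the block. Against effector T cells, Ern1 in WT tumour Tregs was -1.09 with singly sorted samples, and 0.053 (block) and 0.76 (singly sorted) in WT node Tregs. Hspa1a in WT node Tregs ran from -4.32 to 0.37 when 1 sample was left out, above 0 without effector 2. The causes were not tested. Ern1, Chac1, Trib3, Asns, Hspa1a and Hspa1b had samples without a count, so their fold changes are loosely set. Such samples were not all shallow: Hspa1a had no count in HetWT node 4, which held 29623047 counts.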
